A study of Homo sapiens with 18 samples.

Results

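Cells remove PARP inhibitors by pumping them out and by breaking them down. The 10 genes described here are 6 drug efflux transporters (ABCB1, ABCG2, ABCC1, ABCC3, ABCC4 and ABCC5), 2 carboxylesterases (CES1 and CES2) and 2 cytochrome P450 enzymes (CYP3A4 and CYP3A5). They were chosen by name for what they are known to do, with earlier results of these data known but by no rule on a measured value, and they are 10 of the 58884 genes counted. RNA was sequenced from T47D, an established line of estrogen receptor positive luminal breast cancer cells. Wild-type cells (WT, line T47D AAV) and cells without PARP1 (PARP1 KO, line T47D JL) received DMSO, niraparib at 10 µmol/L or olaparib at 10 µmol/L for 48 h, with 3 libraries in each of the 6 groups. PARP1 KO is a single line, so what the deletion does and how these lines differ otherwise cannot be told apart.

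ATP-binding cassette transporters use ATP to move compounds across the plasma membrane. P-glycoprotein, the product of ABCB1, is the best known exporter of PARP inhibitors, and the breast cancer resistance protein encoded by ABCG2 carries many of the same drugs. Carboxylesterases cut the amide of niraparib to an inactive acid, whereas olaparib is oxidized mainly by CYP3A4 and CYP3A5. CYP3A4 and CES1 are best known from the liver, and the nuclear receptor PXR (gene NR1I2) is the main inducer of CYP3A4 and ABCB1 there.

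Of the 10 genes, 5 were detected well above a few reads (CES2, ABCC1, ABCC5, ABCC3 and, at a low level, ABCG2) and the other 5 (ABCC4, CES1, ABCB1, CYP3A4 and CYP3A5) had between 0 and 5 counts in each library. In edgeR, the main test, none of the 6 that could be tested was called in any of the 10 comparisons, in which 0.0136 to 13.8% of all genes were called, a call being a change of more than 1.5-fold at an adjusted P value below 0.05, whereas DESeq2 called 1 of them, ABCC3, in PARP1 KO with olaparib. Smaller changes passed the adjusted P value alone. In WT cells ABCC1 was higher and ABCC5 lower with either drug, and CES2 was lower with olaparib in both genotypes.

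Library totals lay between 28890837 and 52251288 counts, so that 3 counts, the limit that a count of 0 allows, correspond to 0.0540 to 0.105 CPM, counts scaled to the TMM-normalized size of the library. These limits, like any statement on single counts, cover counting error only. PARP1 itself was at 337 ± 26.95 CPM in WT and 25.1 ± 1.38 CPM in PARP1 KO libraries (SD, n = 9 each), with no overlap. The luminal markers ESR1, PGR, GATA3, FOXA1, KRT8, KRT18, KRT19 and EPCAM summed to 8835 to 12852 CPM in WT and 11609 to 14400 CPM in PARP1 KO. Of 6 hepatocyte markers, ALB, APOA2, TTR and SERPINC1 had at most 3 counts in every library and the whole list summed to at most 0.375 CPM. Of 5 enterocyte markers, FABP2, ALPI, SI and APOA4 had at most 3 counts in every library, and the sum of the 5 was at most 0.167 CPM. The 5 fibroblast markers summed to 96.2 to 153 CPM in WT and 88.8 to 134 CPM in PARP1 KO, almost all of it COL1A1 (2888 to 8472 counts a library), while PDGFRB and DCN had 0 to 6 counts. Basal markers summed to at most 5.30 CPM, leukocyte and macrophage markers to at most 0.567 CPM and endothelial markers to at most 0.233 CPM. The part of such cells in the results was not tested.

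RefSeq promoter windows of GRCh38.p14, each 250 bases before to 50 bases after an annotated start, were given for 7 of the 10 genes (13 windows), and 4 of them are printed 5′ to 3′ on the strand of the gene. The windows of CYP3A4 (chr7:99784135-99784434, minus strand) and CYP3A5 (chr7:99679947-99680246, minus strand) stand for enzymes with hardly a read in T47D. The windows of ABCC5 (chr3:184017835-184018134, minus strand) and CES2 (chr16:66934221-66934520, plus strand) stand for the expressed members. Capitals mark matches, on either strand, to 4 motifs. The first is the everted repeat ER6 bound by PXR, which begins with the half-site TGAACT and, after 6 bases of any kind, ends with the common nuclear receptor half-site AGGTCA. The others are GCGTG, the core of the xenobiotic response element bound by the aryl hydrocarbon receptor, GGGCGG, known as the GC box, and the TATA box, TATAAA.
CYP3A4: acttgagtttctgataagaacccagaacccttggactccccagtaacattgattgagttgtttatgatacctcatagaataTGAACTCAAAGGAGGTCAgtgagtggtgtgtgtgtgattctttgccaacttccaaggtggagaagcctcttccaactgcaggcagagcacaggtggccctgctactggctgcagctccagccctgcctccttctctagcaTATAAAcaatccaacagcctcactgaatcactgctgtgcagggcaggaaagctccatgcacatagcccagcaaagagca
CYP3A5: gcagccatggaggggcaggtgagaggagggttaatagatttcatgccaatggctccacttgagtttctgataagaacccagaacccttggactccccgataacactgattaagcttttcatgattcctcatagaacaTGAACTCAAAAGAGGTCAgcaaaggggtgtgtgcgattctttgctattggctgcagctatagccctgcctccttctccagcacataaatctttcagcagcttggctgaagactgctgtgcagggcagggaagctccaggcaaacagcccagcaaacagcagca
ABCC5: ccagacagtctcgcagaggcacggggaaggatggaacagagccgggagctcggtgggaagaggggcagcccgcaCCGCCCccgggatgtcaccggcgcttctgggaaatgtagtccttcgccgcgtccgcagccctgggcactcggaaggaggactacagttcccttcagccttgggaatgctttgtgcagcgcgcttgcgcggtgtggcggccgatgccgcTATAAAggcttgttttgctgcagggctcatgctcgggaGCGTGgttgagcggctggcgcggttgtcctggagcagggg
CES2: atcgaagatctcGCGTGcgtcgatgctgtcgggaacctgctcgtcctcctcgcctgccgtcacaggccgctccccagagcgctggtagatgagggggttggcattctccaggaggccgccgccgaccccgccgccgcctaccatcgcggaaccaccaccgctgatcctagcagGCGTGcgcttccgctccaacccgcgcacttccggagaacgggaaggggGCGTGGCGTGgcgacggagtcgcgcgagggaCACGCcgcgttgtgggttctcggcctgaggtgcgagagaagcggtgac

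The everted repeat began 169 bases before the start of CYP3A4 and 113 bases before that of CYP3A5. It occurred in 3 of the 35116 windows of the same length (0.00854%), the other being that of ITGB1BP2. Neither CYP3A window held a GC box or a GCGTG core, and they contained 0 and 2 CpG dinucleotides at a GC content of 49.3% and 50%. The printed CES2 window had 40 CpG dinucleotides at 69.0% GC and 5 GCGTG cores, and ABCC5 had 26 CpG dinucleotides at 65.7% GC with 1 core, 1 GC box and 1 TATA box. The other CES2 window (chr16:66935266-66935565), not printed, had 14 CpG dinucleotides at 63.3% GC and no GCGTG core, GC box or TATA box. ABCC4, which had at most 5 counts in any library, had the most CpG-rich window of the members (47 CpG dinucleotides, 79.7% GC). The median window had 14 CpG dinucleotides and 58.7% GC, a GCGTG core was present in 36.5% of all windows, a GC box in 45% and a TATA box in 11.5%. Further motifs searched, a repeated AGGTCA with 3 bases between the copies (the direct repeat DR3, in 0.0057% of windows) and TGAC and GC with 3 bases between them (the core of the antioxidant response element, 13.3%), had no match in the 4 printed windows. These matches describe letters and were not tested as binding sites.

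NR1I2, the gene of PXR, had 1 count in 1 of the 18 libraries and 0 in the other 17, and NR1I3, encoding the related receptor CAR, had at most 2 counts. The transcripts of CYP3A4 and CYP3A5 were equally scarce.
CYP3A4 (chromosome 7, 99756960 to 99784248, minus strand) had 5 counts over all 18 libraries, with 2 in 1 WT DMSO library and 1 in each of 3 others. CYP3A5 (chromosome 7, 99648194 to 99679998, minus strand) also had 5 counts in total, 2 of them in 1 WT DMSO library, 2 in 1 PARP1 KO olaparib library and 1 in a WT niraparib library. These values lay below the limit that a count of 0 allows in every library. Of their near-identical relatives, which could share reads with them, CYP3A7 and the CYP3A pseudogenes had 0 counts and CYP3A43 had 1, but 41.7% of the CYP3A7 exon bases are shared with CYP3A51P and the readthrough gene CYP3A7-CYP3A51P, where reads were left out of the count. The partners that supply electrons to P450 enzymes were expressed, with POR, the P450 reductase, at 117 ± 3.69 CPM in WT and 117 ± 4.79 CPM in PARP1 KO cells with DMSO (SD, n = 3).

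The genes were ranked by CPM per kilobase of exon, which allows levels of genes of different length to be compared. Over the 18 libraries CES2 stood at 11.7 ± 1.32 CPM per kb (SD, n = 18), ABCC1 at 10.96 ± 1.27, ABCC5 at 6.78 ± 0.723, ABCC3 at 1.59 ± 0.405 and ABCG2 at 0.0827 ± 0.0283. CES2 exceeded ABCC1 in 11 of 18 libraries and their ranges overlapped, so the order of these was not settled beyond their spread. The order CES2 before ABCC1 held for the group means in WT DMSO, PARP1 KO DMSO and PARP1 KO niraparib, and the reverse order in WT niraparib, WT olaparib and PARP1 KO olaparib. ABCC1 exceeded ABCC5 in 17 of 18 libraries. From ABCC5 to ABCC3, from ABCC3 to ABCG2 and from ABCG2 to ABCC4 the ranges did not overlap. ABCC4 (0.00575 CPM per kb), CES1 (0.00357), ABCB1 (0.00280), CYP3A4 (0.00209) and CYP3A5 (0.000653) followed with ranges that overlapped and all reached 0.

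**Figure D1:**
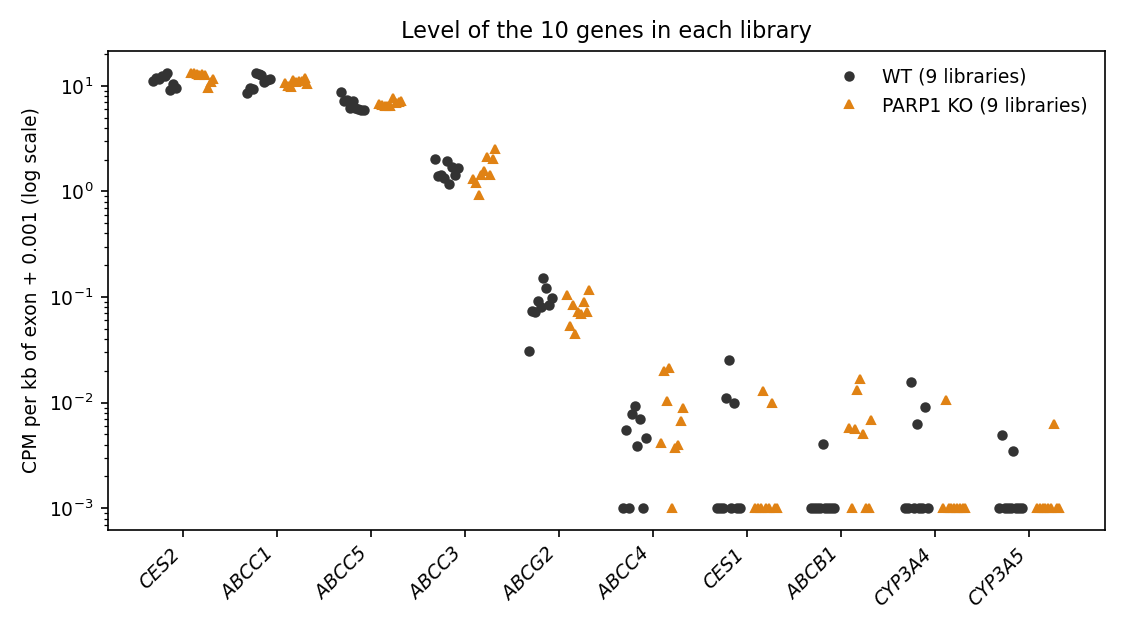
Level of each gene in each of the 18 libraries, as CPM per kilobase of exon plus 0.001 on a log axis, with WT libraries as circles and PARP1 KO libraries as triangles. CES2, ABCC1, ABCC5 and ABCC3 lie above 0.9 in all libraries, ABCG2 between 0.03 and 0.15, and the other 5 genes near the bottom, where a point at 0.001 is a library without a read.

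ABCB1, the P-glycoprotein gene (chromosome 7, 87503633 to 87713323, minus strand), was close to undetected. It had 1 count in 9 WT libraries together, in a niraparib library. In PARP1 KO it had 1, 0 and 1 counts with DMSO, 2, 3 and 1 with niraparib and 0, 0 and 1 with olaparib, 9 in all. At 10 counts over the series it did not exceed the filter for testing, and no library exceeded 3 counts. Reads were present in 6 of 9 PARP1 KO and 1 of 9 WT libraries. With no filter on low counts, edgeR gave the genotypes over all treatments an unadjusted P value of 0.0345 and an adjusted P value of 0.153, which did not pass.

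ABCC4, encoding the multidrug resistance protein MRP4 that exports cyclic nucleotides (chromosome 13, 95019835 to 95301475, minus strand), had 32 counts over the 18 libraries and at most 5 in any of them. It was tested and passed the adjusted P value in no comparison, with the smallest adjusted P value at 0.341 by edgeR. No fold is given for it because the group totals rest on 2 to 9 counts.

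ABCG2 (chromosome 4, 88090150 to 88231628, minus strand) was detected in all 18 libraries, with 5 to 34 counts in each. In WT cells it was at 0.167, 0.407 and 0.399 CPM with DMSO, at 0.506, 0.450 and 0.839 CPM with niraparib and at 0.674, 0.460 and 0.540 CPM with olaparib. All 6 drug-treated WT libraries were above the 3 DMSO libraries, which form the shared reference for both drugs. In PARP1 KO cells it was at 0.575, 0.294 and 0.463 CPM with DMSO, at 0.245, 0.400 and 0.379 CPM with niraparib and at 0.494, 0.399 and 0.647 CPM with olaparib, and these groups overlapped. In the edgeR fit the WT log2 fold changes were 0.82 ± 0.39 for niraparib (SE, adjusted P = 0.113) and 0.73 ± 0.40 for olaparib (adjusted P = 0.233), so neither passed. The log2 fold change in PARP1 KO was -0.37 with niraparib (adjusted P = 0.847) and 0.18 with olaparib (adjusted P = 0.862), and the niraparib effects of the genotypes differed by -1.19 with a 95% interval of -2.35 to -0.03 (adjusted P = 0.140).

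ABCC1 encodes MRP1, which exports glutathione conjugates and many anticancer drugs (chromosome 16, 15949577 to 16143074, plus strand). It was at 64.5, 72.0 and 70.9 CPM in WT cells with DMSO, at 101, 98.1 and 95.99 CPM with niraparib and at 81.9, 85.2 and 87.0 CPM with olaparib. The 3 WT groups did not overlap, with DMSO lowest and niraparib highest. In PARP1 KO cells the values were 80.8, 76.0 and 74.1 CPM with DMSO, 86.9, 81.6 and 84.9 CPM with niraparib and 84.7, 89.3 and 78.6 CPM with olaparib. Niraparib libraries were above the DMSO libraries also in PARP1 KO, by a smaller margin, and the olaparib libraries overlapped them.

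On the log2 scale the WT change of ABCC1 was 0.51 ± 0.05 with niraparib (SE, edgeR adjusted P = 7.3e-08), a fold of 1.42, and 0.29 ± 0.05 with olaparib (adjusted P = 3.6e-04), a fold of 1.23. Niraparib exceeded olaparib by 0.21 on the log2 scale in WT cells (95% interval 0.10 to 0.32, adjusted P = 0.00283). In PARP1 KO the change was 0.14 ± 0.06 with niraparib (adjusted P = 0.444) and 0.13 ± 0.06 with olaparib (adjusted P = 0.175). The niraparib effect in PARP1 KO was smaller than that in WT by a log2 difference of -0.37 (95% interval -0.53 to -0.22, adjusted P = 3.1e-04). For olaparib the difference between genotypes was -0.16 (95% interval -0.32 to -0.003, adjusted P = 0.304).

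ABCC5, the gene of the nucleotide exporter MRP5 (chromosome 3, 183919934 to 184017939, minus strand), differed in the opposite direction in WT cells. Its values were 98.5, 82.2 and 83.9 CPM with DMSO, 70.2, 82.4 and 70.5 CPM with niraparib and 67.9, 66.5 and 66.5 CPM with olaparib. One niraparib library, at 82.4 CPM, lay within the DMSO range, whereas all olaparib libraries were below it. That niraparib library and the DMSO library at 98.5 CPM were among those that stood apart over many genes. In PARP1 KO the values were 76.4, 74.6 and 73.2 CPM with DMSO, 73.3, 73.3 and 87.2 CPM with niraparib and 77.7, 79.2 and 82.5 CPM with olaparib. Niraparib overlapped DMSO there, and the olaparib libraries were all slightly above DMSO. The niraparib library at 87.2 CPM also stood apart over many genes.

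The log2 fold change of ABCC5 in WT was -0.24 ± 0.07 with niraparib (SE, edgeR adjusted P = 0.00857) and -0.39 ± 0.07 with olaparib (adjusted P = 5.2e-04), and the drugs differed by 0.15 (95% interval 0.004 to 0.30, adjusted P = 0.114). That difference passed with no filter on low counts (0.15, adjusted P = 0.0255) and in a fit of the 6 libraries compared (0.17, adjusted P = 0.0436). In a fit of the niraparib and DMSO libraries alone the niraparib change was -0.23 and its adjusted P value 0.0739. In PARP1 KO the changes were 0.07 ± 0.06 (adjusted P = 0.795) and 0.09 ± 0.06 (adjusted P = 0.434). The effects differed between the genotypes by 0.31 for niraparib (95% interval 0.10 to 0.51, adjusted P = 0.0233) and by 0.49 for olaparib (95% interval 0.29 to 0.69, adjusted P = 0.00544). The niraparib difference did not pass without WT DMSO replicate 1 (0.22), WT niraparib replicate 1 (0.24) or 3 (0.24), PARP1 KO DMSO replicate 3 (0.29) or PARP1 KO niraparib replicate 3 (0.21), and the olaparib difference was 0.48 (adjusted P = 0.0508) without WT olaparib replicate 3. With DMSO alone ABCC5 was lower in PARP1 KO than in WT in every library, by -0.24 ± 0.07 on the log2 scale, at an adjusted P value of 0.0896 that did not pass.

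ABCC3 encodes MRP3, an exporter of bile salts and glucuronides (chromosome 17, 50634777 to 50692253, plus strand), and varied more between replicates than ABCC1 and ABCC5 in every group. WT values were 19.7, 13.4 and 13.6 CPM with DMSO, 12.8, 18.6 and 11.3 CPM with niraparib and 16.3, 13.8 and 16.03 CPM with olaparib, and all 3 groups overlapped. PARP1 KO values were 12.6, 11.5 and 8.87 CPM with DMSO, 13.8, 14.9 and 20.3 CPM with niraparib and 13.8, 19.4 and 24.5 CPM with olaparib. In PARP1 KO every drug-treated library was above every DMSO library, although the drug groups spread widely. The libraries at 19.7 CPM (WT DMSO), 18.6 CPM (WT niraparib) and 20.3 CPM (PARP1 KO niraparib) were among those that stood apart over many genes. How far the spread of ABCC3 goes with whole libraries was not tested. The coefficient of variation within groups of 3 ranged from 8.88% to 27.9% for ABCC3, against 2.67% to 6.37% for ABCC1.

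In the edgeR fit ABCC3 had a log2 fold change of 0.59 ± 0.27 with niraparib (SE, adjusted P = 0.578) and 0.80 ± 0.26 with olaparib (adjusted P = 0.137) in PARP1 KO, and of -0.11 (adjusted P = 0.775) and -0.0015 (adjusted P = 0.998) in WT. The olaparib value in PARP1 KO passed and was called by DESeq2, at 0.81 (adjusted P = 0.0200), and by edgeR without PARP1 KO olaparib replicate 1, at 0.99 (adjusted P = 0.0457). The differences between genotypes were 0.69 for niraparib (95% interval -0.10 to 1.48, adjusted P = 0.220) and 0.81 for olaparib (95% interval 0.02 to 1.60, adjusted P = 0.304).

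**Figure D2:**
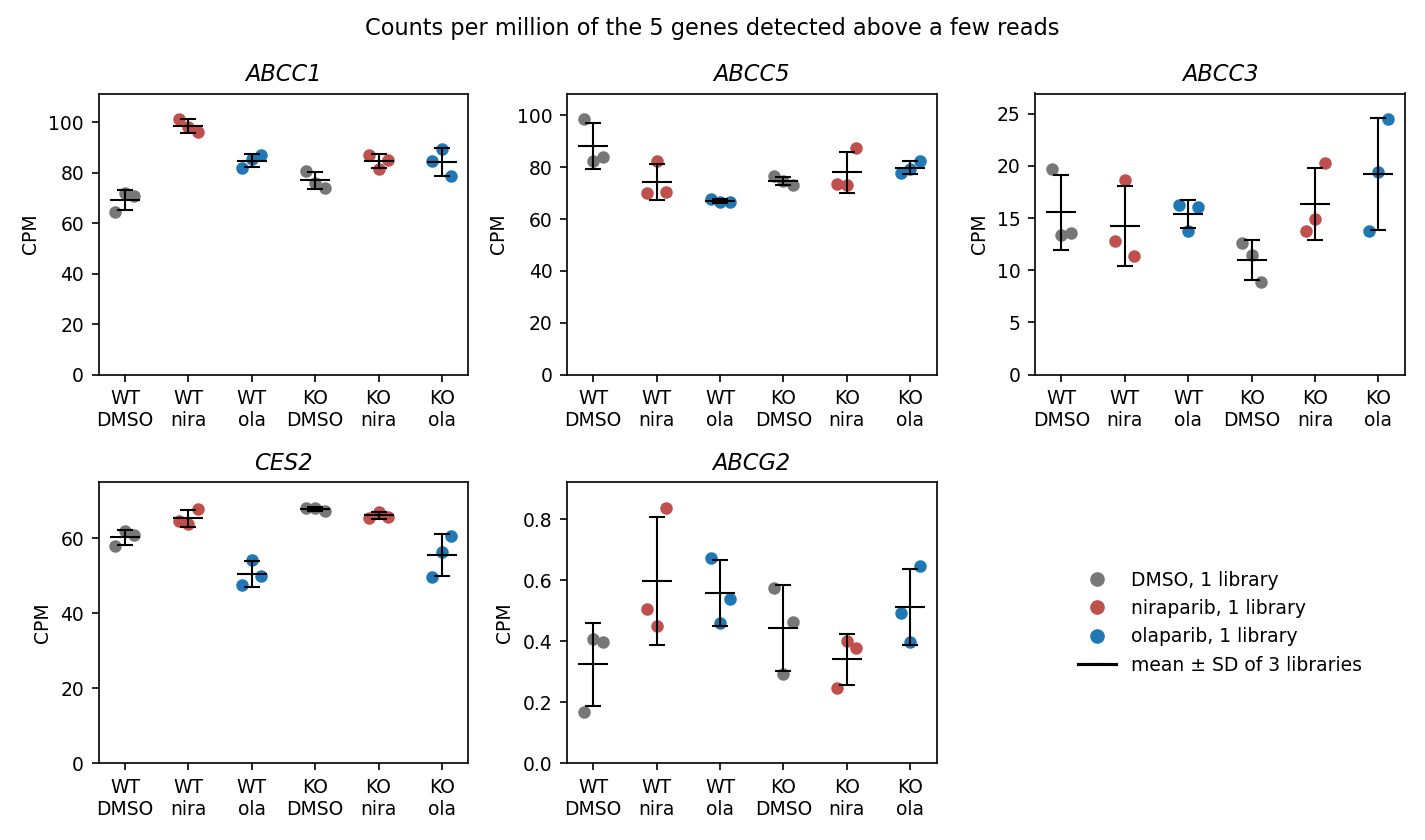
CPM of ABCC1, ABCC5, ABCC3, CES2 and ABCG2 in each of the 18 libraries (points, coloured by treatment), with the mean and SD of the 3 libraries of a group as a black bar and error bar. In WT cells the ABCC1 points step up from DMSO (64.5 to 72.0) to niraparib (95.99 to 101), whereas CES2 is lowest with olaparib in both genotypes.

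CES1, the main carboxylesterase of the liver (chromosome 16, 55802851 to 55833337, minus strand), had 8 counts over the 18 libraries, of which 4 fell in 1 WT niraparib library, and 0 counts in all 6 DMSO libraries. Its pseudogenes CES1P1 and CES1P2 had 0 counts. CES1 stayed below the filter for testing.

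CES2, the intestinal carboxylesterase that also activates irinotecan (chromosome 16, 66934444 to 66945096, plus strand), was by contrast among the more abundant members. Another gene on its strand overlaps 147 of its 5343 exon bases (2.75%), where the authors' counting left reads out. In WT cells it was at 58.0, 62.0 and 60.9 CPM with DMSO, at 64.6, 63.7 and 68.0 CPM with niraparib and at 47.4, 54.4 and 49.9 CPM with olaparib. The 3 WT groups did not overlap, with olaparib lowest and niraparib highest. In PARP1 KO cells it was at 68.0, 68.3 and 67.4 CPM with DMSO, at 65.6, 67.1 and 65.8 CPM with niraparib and at 49.7, 56.5 and 60.7 CPM with olaparib. Here too all olaparib libraries were below the other 6, and the niraparib libraries were just below the DMSO libraries.

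The log2 fold change of CES2 with olaparib was -0.25 ± 0.06 in WT (SE, edgeR adjusted P = 0.00291) and -0.29 ± 0.06 in PARP1 KO (adjusted P = 0.00565), and the genotypes differed by -0.03 (95% interval -0.21 to 0.14, adjusted P = 0.895). With niraparib it was 0.12 ± 0.06 in WT (adjusted P = 0.112) and -0.03 ± 0.06 in PARP1 KO (adjusted P = 0.924). Niraparib exceeded olaparib by 0.37 in WT (95% interval 0.25 to 0.48, adjusted P = 2.3e-05) and by 0.26 in PARP1 KO (95% interval 0.13 to 0.39, adjusted P = 0.0102). The PARP1 KO value did not pass without niraparib replicate 2 (0.25, adjusted P = 0.0537) or olaparib replicate 1 (0.18, adjusted P = 0.0606). Over the 3 treatments CES2 was higher in PARP1 KO than in WT by 0.11 ± 0.03 (adjusted P = 0.0190), with overlapping libraries, and this did not pass without WT niraparib replicate 1 (0.10), WT olaparib replicate 1 (0.09) or 3 (0.10) or PARP1 KO olaparib replicate 3 (0.09), the highest adjusted P value being 0.0614.

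**Figure D3:**
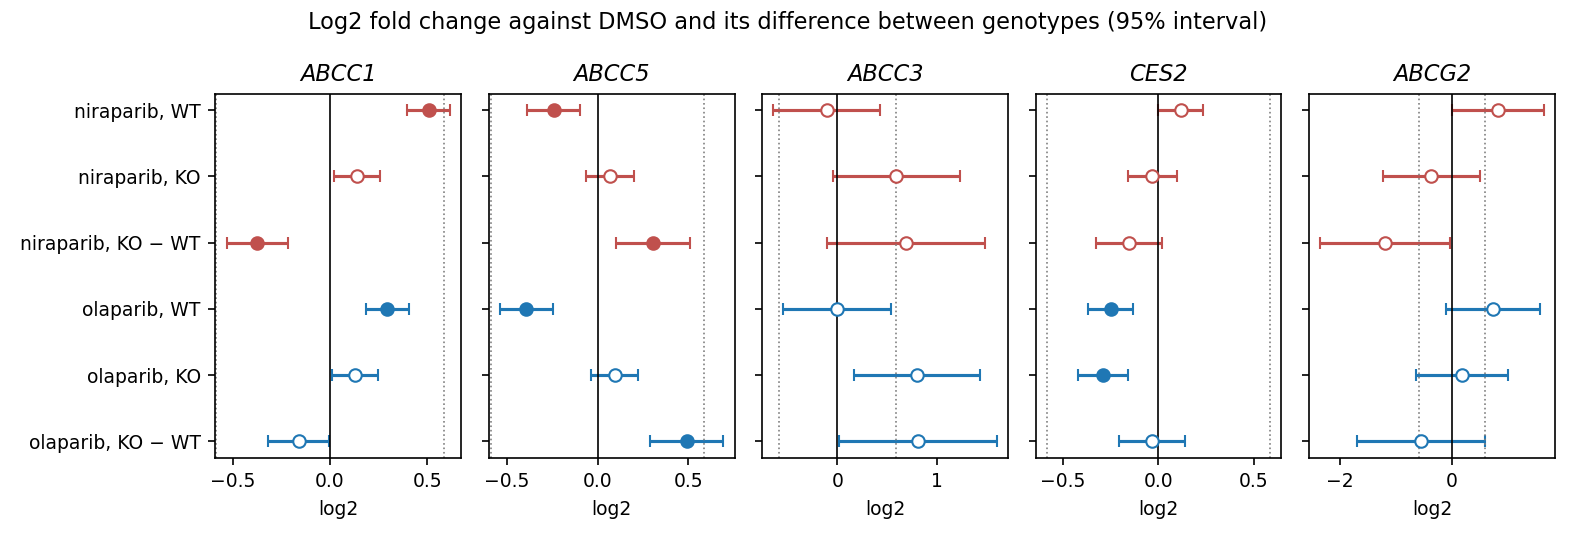
Log2 fold change against DMSO for niraparib (red) and olaparib (blue) in WT and PARP1 KO, and the difference between genotypes (KO minus WT), for 5 genes, with 95% intervals. Filled points passed an adjusted P value of 0.05, and dotted lines mark 1.5-fold. ABCC1 in WT reaches 0.51 with niraparib, while the intervals of ABCG2 and ABCC3 are several times wider than those of ABCC1, ABCC5 and CES2.

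Of the 10 genes, 6 (ABCG2, ABCC1, ABCC3, ABCC4, ABCC5 and CES2) had enough counts to be tested, and 0 were called by edgeR in every comparison. In WT with niraparib, 2 passed the adjusted P value and 2 an unadjusted P value of 0.05, where 13.8% of all tested genes were called and 38% passed the adjusted P value. In WT with olaparib 3 passed by each of these P values, where 4.04% of all genes were called and 19% passed. In PARP1 KO, where 0.0136% of genes were called with niraparib and 0.109% passed, 0 members passed and 1 had an unadjusted P value below 0.05. With olaparib in PARP1 KO, 1 member passed and 3 had an unadjusted P value below 0.05, against 0.803% of genes called and 8.29% passing. Over all genes, edgeR gave an unadjusted P value below 0.05 to 10053 of 22446 in WT with niraparib and to 6783 with olaparib. In PARP1 KO it did so for 2014 of 22037 genes with niraparib and for 4640 with olaparib. DESeq2 called 0 members in these comparisons except for ABCC3 in PARP1 KO with olaparib.

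Between the drugs, 2 members passed in WT and 1 in PARP1 KO, where 8.95% and 1.07% of all genes were called and 32.2% and 10% passed. An unadjusted P value below 0.05 was reached by 3 members in WT and 1 in PARP1 KO, and by 8927 of 22446 and 4877 of 22037 genes. Between the genotypes with DMSO, 0 members passed (0.146% of genes called, 1.39% passing), and DESeq2 passed 1, ABCC5. There 3 members and 3354 of the 24675 genes had an unadjusted P value below 0.05 in edgeR. Over all treatments 1 member passed (2.27% called, 24.7% passing), also by the unadjusted P value, as did 8145 of 24675 genes. The niraparib effect differed between genotypes for 2 members by adjusted P value (8.88% called, 22.9% passing) and the olaparib effect for 1 (0.657% called, 2.27% passing). By an unadjusted P value below 0.05 there were 3 members in each, beside 7991 and 3877 of 24675 genes. The median log2 fold change of the 6 tested members in WT was 0.31 with niraparib and 0.15 with olaparib, beside medians of -0.02 and -0.02 over all tested genes, and in PARP1 KO it was 0.02 and 0.11, beside 0.01 and 0.01. Without ABCC4, whose fitted changes rest on a few counts, the medians of the other 5 were 0.12 and -0.0015 in WT and 0.07 and 0.13 in PARP1 KO, a set chosen after the values were seen.

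The genes whose pattern over the 18 libraries was most like a member's were sought among 9798 genes of at least 10 CPM, by Pearson's r of log2 CPM. For ABCC1 these were SLC36A1 (r = 0.93) and TANC2 (0.93), for ABCC5 MCM3AP (0.91) and TAGLN (0.90), for ABCC3 INPPL1 (0.95) and ENGASE (0.93), and for CES2 HNRNPM (0.97) and FBXO9 (0.96). The points share libraries and depth and the 6 groups, so these coefficients describe likeness only.

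Further genes of drug transport and metabolism were taken from 7 lists of 79 genes, 78 of which were found in the files. Of these 78, 29 had at most 3 counts in every library and 12 of them had none at all. The 29 include 13 of 15 glucuronosyltransferases, the export carrier SLC47A2 and the liver uptake carrier SLCO1B3. Among the rest, SLC47A1, which extrudes organic cations, was at 14.5 ± 1.04 CPM in WT with DMSO and 14.9 ± 1.21 CPM in PARP1 KO with DMSO, and the carboxylesterase CES3 at 11.5 ± 1.48 and 11.3 ± 1.29 CPM (SD, n = 3). In WT with niraparib 46 list genes were tested, 3 were called higher and 1 lower, and 7 higher and 12 lower passed the adjusted P value by edgeR. These are 8.70% called and 41.3% passing, where 13.8% and 38% of all tested genes did so. In WT with olaparib 1 was called higher and 1 lower, 4.35% of the 46 beside 4.04% of all genes. In PARP1 KO with niraparib, edgeR called 0 of 44 tested and passed 1 (0.0136% of all genes called, 0.109% passing). DESeq2, which gave 34 of them an adjusted P value, also called 0 and passed 1. In edgeR 4 of the 44 had an unadjusted P value below 0.05, as did 2014 of all 22037 genes. With no filter on low counts edgeR called 1 there, ABCC12 (log2 0.69, adjusted P = 0.00621, against 0.70 and 0.136 with the filter). With olaparib in PARP1 KO 1 of 44 was called, lower, where 0.803% of all genes were called.

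Of 11 xenobiotic receptors and partners, AHR, the aryl hydrocarbon receptor that induces CYP1 enzymes, was called. It was at 24.2, 30.6 and 26.4 CPM in WT cells with DMSO, at 53.4, 59.4 and 64.6 CPM with niraparib and at 28.1, 28.1 and 27.9 CPM with olaparib. All niraparib libraries were well above the rest, and olaparib lay within the DMSO range. In PARP1 KO it was at 32.4, 36.0 and 34.1 CPM with DMSO, 35.1, 38.5 and 28.4 CPM with niraparib and 31.7, 29.8 and 25.6 CPM with olaparib, where niraparib overlapped DMSO and all olaparib libraries were below it. That olaparib difference was -0.23 on the log2 scale (edgeR adjusted P = 0.204, and 0.0200 with no filter on low counts). With DMSO alone every PARP1 KO library was above every WT library, by 0.33 ± 0.11 on the log2 scale (edgeR adjusted P = 0.160). This passed with DESeq2 (adjusted P = 0.0361), and in edgeR with a replicate block (0.0357) or no filter on low counts (4.7e-04). AHR rose by 1.12 ± 0.08 on the log2 scale in WT with niraparib (SE, edgeR adjusted P = 8.4e-10), exceeded its olaparib level by 1.07 (adjusted P = 3.4e-09) and its niraparib effect was smaller in PARP1 KO than in WT by a log2 difference of -1.13 ± 0.15 (adjusted P = 1.4e-05). An annotated neighbour on its strand overlaps 29.5% of the AHR exon bases, where reads were left out of the count. CYP1 enzymes were not among the lists.

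Of 13 cation and uptake carriers, 8 were tested in WT. SLCO3A1, an organic anion carrier, rose with niraparib from 0.485 ± 0.168 to 0.993 ± 0.152 CPM (SD, n = 3; log2 1.05, edgeR adjusted P = 0.0123), and its niraparib effect differed between genotypes by -1.61 (adjusted P = 0.0197). Without WT DMSO replicate 2 these were 0.83 (adjusted P = 0.0762) and -1.39 (adjusted P = 0.0625), and without PARP1 KO DMSO replicate 1 the difference was -1.50 (adjusted P = 0.0535). SLC22A4, the ergothioneine carrier OCTN1, rose from 0.988 ± 0.145 to 1.80 ± 0.672 CPM (log2 0.84, adjusted P = 0.0188), and without niraparib replicate 3, the highest, the value was 0.50 (adjusted P = 0.202). It also exceeded its olaparib level in WT (log2 0.83, adjusted P = 0.0257), which did not hold without niraparib replicate 3 (0.49) or olaparib replicate 1 (0.76) or 2 (0.68). SLCO4A1, another organic anion carrier, rose with olaparib in WT from 1.15 ± 0.194 to 1.94 ± 0.187 CPM (log2 0.76, adjusted P = 0.0207), and did not pass without DMSO replicate 3 (0.62, adjusted P = 0.103) or olaparib replicate 1 (0.73) or 3 (0.70).

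Of the 8 other transporters of the ABCB, ABCC and ABCG families, ABCC2, which encodes the canalicular exporter MRP2, fell with olaparib in WT from 1.27 ± 0.261 to 0.615 ± 0.156 CPM (SD, n = 3; log2 -1.03, edgeR adjusted P = 0.0134). It did not pass without DMSO replicate 2 (-0.93, adjusted P = 0.0627) or olaparib replicate 3 (-0.85, adjusted P = 0.0744). ABCC12, a close relative of ABCC11, was higher with niraparib than with olaparib in PARP1 KO (5.93 ± 0.897 against 3.48 ± 0.838 CPM, log2 0.79, adjusted P = 0.00558), and without olaparib replicate 2 the value was 0.67 (adjusted P = 0.0562). ABCC11, encoding the cyclic nucleotide exporter MRP8, is named after its values were seen, as the gene behind the count of 1 in PARP1 KO with niraparib. It was at 164, 171 and 168 CPM with DMSO, at 220, 228 and 200.2 CPM with niraparib and at 199.8, 194 and 195 CPM with olaparib in PARP1 KO, with no overlap with DMSO. Its log2 fold change was 0.37 ± 0.05 with niraparib (adjusted P = 0.00120) and 0.23 ± 0.05 with olaparib (adjusted P = 0.00768), but neither passed when all 18 libraries shared 1 estimate of the spread (adjusted P = 0.138 and 0.169). In WT its niraparib libraries, at 158, 133 and 171 CPM, overlapped the DMSO libraries, at 132, 165 and 173 CPM, while its olaparib libraries, at 184, 193 and 182 CPM, all lay above them (log2 0.25 ± 0.12, adjusted P = 0.220). The olaparib effects in PARP1 KO and WT differed by -0.02 ± 0.13 (adjusted P = 0.979), and the niraparib effects by 0.39 ± 0.13 (adjusted P = 0.0423), a difference that did not pass in 9 of 12 fits leaving out a library.

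Of 18 genes of sulfation and glutathione conjugation, 14 were tested in WT with niraparib. The glutathione transferase GSTM4 fell there from 25.7 ± 0.463 to 16.5 ± 1.28 CPM (SD, n = 3; log2 -0.64 ± 0.08, edgeR adjusted P = 4.8e-07), was at 25.2 ± 0.896 and 25.3 ± 0.409 CPM in the same groups of PARP1 KO, and its niraparib effects in PARP1 KO and WT differed by 0.65 ± 0.10 (adjusted P = 4.0e-06). In the same list 7 of the 14 genes passed as lower and 0 as higher, with a median of -0.26 beside -0.02 over all genes, 38% of which passed in either direction. The share of all genes passing as lower was not counted, and the list itself was not tested. The sulfotransferase SULT1A2 was lower with niraparib than with olaparib in PARP1 KO (1.56 ± 0.1999 against 2.62 ± 0.324 CPM, log2 -0.73, adjusted P = 0.0260), and did not pass without niraparib replicate 1 or 2 or olaparib replicate 2 or 3 (-0.70 to -0.65). Among 7 other esterases and hydrolases, BCHE, encoding butyrylcholinesterase, fell with olaparib in PARP1 KO from 1.93 ± 0.115 to 1.06 ± 0.226 CPM (log2 -0.85, adjusted P = 0.0230), a call that was lost in 5 of 6 fits leaving out a library, all but that without olaparib replicate 2 (highest adjusted P = 0.0881). Its level with niraparib in PARP1 KO exceeded that with olaparib by 0.78 (adjusted P = 0.0315), which was lost in 4 of 6 such fits and in a fit of the 6 libraries compared (0.77, adjusted P = 0.0706). CES4A, a carboxylesterase relative, was called lower in PARP1 KO over all treatments (adjusted P = 0.0456) on at most 9 counts a library. DESeq2 did not call it. With a replicate block its edgeR adjusted P value was 0.0623, and leaving out a library lost the call in 13 of 18 fits. Of 6 other CYP3A genes and P450 partners, 4 could be tested against DMSO with the drugs, and 0 of the 4 were called by edgeR or DESeq2 with either drug, where edgeR called 0.0136 to 13.8% of all genes. With an unadjusted P value below 0.05 there were 3 in WT with niraparib, 0 in WT with olaparib and 1 with each drug in PARP1 KO. Over all genes there were 10053 and 6783 of 22446 in WT, and 2014 and 4640 of 22037 in PARP1 KO, with niraparib and olaparib in turn. Of 15 glucuronosyltransferases 13 had at most 3 counts in every library and only 1 could be tested with the drugs, so that no count of calls is given for them. The UGT1A genes have 40.6 to 70.7% of their exon bases, and the transporter gene SLCO1B3 54.5%, in common with other annotated genes of their strand, so that reads falling there are missing from these counts.

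**Figure D4:**
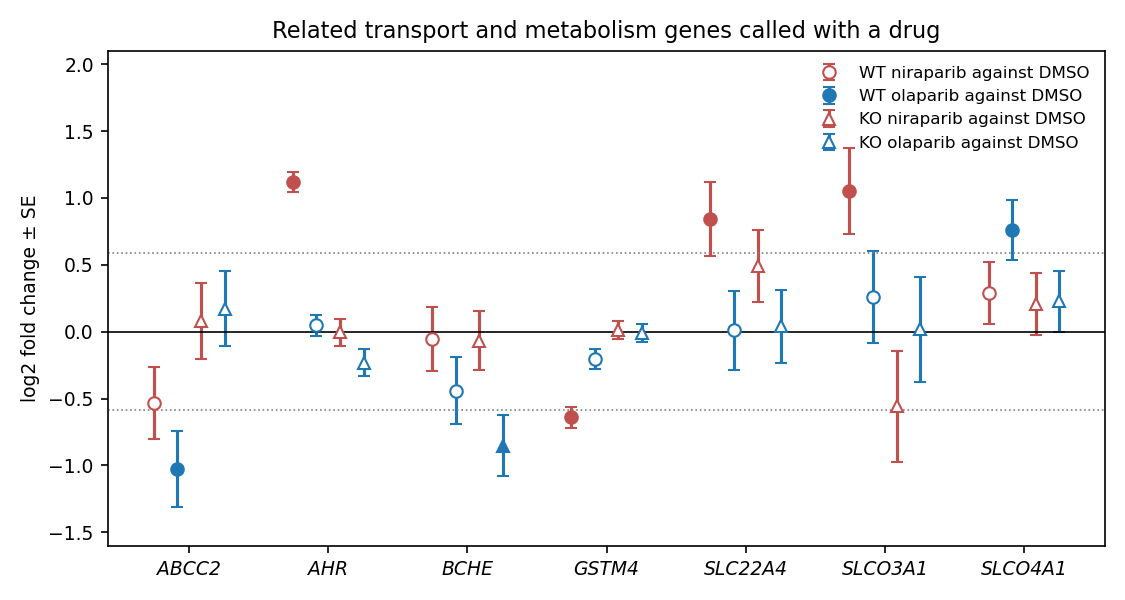
Log2 fold change against DMSO, with its SE, for the related transport and metabolism genes called with a drug in at least 1 genotype (circles WT, triangles PARP1 KO, red niraparib, blue olaparib). Filled points were called, and dotted lines mark 1.5-fold. AHR reaches 1.12 in WT with niraparib while its other 3 values lie between -0.23 and 0.05.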

How the data were processed

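RNA of 18 T47D libraries was sequenced by the authors, whose deposited files hold 1 read count per gene and library. Per the labels and methods, reads were trimmed with Trimmomatic, mapped with STAR to GRCh38, marked with Picard MarkDuplicates and counted on the sense strand with featureCounts 2.0.0 on Ensembl release 96, primary alignments only. The count files are named deduplicated, but no source used here says if marked duplicates entered the counts. Reads over more than 1 gene of a strand were not counted. Labels and methods differ on RNA input, medium and extraction kit. The methods describe 3 dishes per condition of the omics work, but the labels tie no library to a dish, so P values measure the spread between libraries, which may be that between dishes of 1 line.

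The genes and lists were chosen with earlier results of these data known. All 10 genes are named, with list genes called in at least 1 comparison, and the 2 genes most like each member of at least 1 CPM.

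Genes with more than 10 counts in a fit were tested with edgeR 4.0.16 (R 4.3.3; TMM, robust quasi-likelihood F test, Benjamini-Hochberg adjustment over all genes). WT and PARP1 KO were fitted on 9 libraries each, genotype comparisons and interactions on all 18. CPM use TMM library sizes, and per kb values the exon bases shared with no other gene of the strand. SEs were derived from the F statistic (the change over the root of F). In simulated data edgeR recovered, of 200 genes changed by 1 on the log2 scale, 191 for WT niraparib (21923 genes), 186 for PARP1 KO niraparib (21534 genes) and 166 for the niraparib interaction (24097 genes), and called 7, 4 and 5 other genes. Alternatives were RLE size factors, other filters, DESeq2 1.42.0, a replicate block, other library sets and fold limits, and each library left out.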

Additional observations from a re-analysis of the deposited data

Results flagged for a closer look

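Of the 6 tested genes, 2 had a drug effect that differed between WT and PARP1 KO by the test of the difference itself, in 3 cases. The niraparib effect on ABCC1 was 0.51 on the log2 scale in WT and 0.14 in PARP1 KO, a difference of -0.37 (edgeR adjusted P = 3.1e-04) that passed in all 12 fits leaving out a library (-0.41 to -0.33). The niraparib effect on ABCC5 was -0.24 in WT and 0.07 in PARP1 KO, a difference of 0.31 (adjusted P = 0.0233), which failed in 5 of the 12 fits. The olaparib effect on ABCC5 was -0.39 in WT and 0.09 in PARP1 KO, a difference of 0.49 (adjusted P = 0.00544) that failed in 1 of the 12. Of all genes, 22.9% passed the niraparib and 2.27% the olaparib test of the difference. None of the 3 differences exceeds 1.5-fold, and the 2 of ABCC5 share their DMSO libraries, of which the first WT library, at 98.5 CPM, is the highest of all 18. Without that library the ABCC5 difference for niraparib was 0.22. WT DMSO replicate 1, WT niraparib replicate 2 and PARP1 KO niraparib replicate 3 stood apart from their groups over many genes. What part this has in the differences was not tested.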

How the results depend on the processing

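With no limit on the size of the change, the counts of members called in place of 0 were 2 for niraparib and 3 for olaparib against DMSO in WT, 2 between the drugs in WT, 1 for olaparib against DMSO and 1 between the drugs in PARP1 KO, 1 for the genotypes over all treatments, and 2 and 1 for the niraparib and olaparib interactions. For PARP1 KO with olaparib, DESeq2 called 1 member and passed 2, and leaving out a library gave 0 to 1 called and 1 to 2 passing. A fit of only the 6 libraries compared left 1 of 2 members passing for WT niraparib, and that fit and the one with no filter passed 3 in place of 2 between the drugs in WT. Between the genotypes with DMSO, 1 member passed in place of 0 with no filter on low counts and with DESeq2. Leaving out a library gave 0 to 1 members passing between the drugs in PARP1 KO, 0 to 1 for the genotypes over all treatments, 1 to 2 for the niraparib interaction and 0 to 1 for the olaparib interaction. The cause was not tested.

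Signs turned for values that passed no test. Leaving out a library, the log2 fold change of ABCC3 ran from -0.361 to 0.0906 for WT niraparib, -0.101 to 0.193 for WT olaparib, -0.358 to 0.0405 between the drugs in WT and -0.0609 to 0.0911 between the genotypes over all treatments. ABCG2 ran from -0.234 to 0.273 between the drugs in WT and -0.0285 to 0.402 for PARP1 KO olaparib. ABCC5 ran from -0.0246 to 0.114 for PARP1 KO niraparib, -0.112 to 0.0201 between the drugs in PARP1 KO and -0.0021 to 0.0564 between the genotypes over all treatments. ABCC1 between the drugs in PARP1 KO ran from -0.0351 to 0.0619 and was -0.0045 in the fit of 6 libraries, and CES2 in the olaparib interaction ran from -0.101 to 0.0412.

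Replicate numbers are shared by the groups, but the labels do not say what a number marks. Of 18 pairs of same-numbered libraries, 5 had deviations from their group means correlated above 0.1 (range -0.54 to 0.55), and 5 of 18 libraries correlated best with their own number, so the numbers were not taken as pairs. With a replicate block the value of ABCC3 for WT olaparib was 0.0054 in place of -0.0015, and no count of members called or passing moved.

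Over all genes, the count called for PARP1 KO niraparib was 3 of 22037, and 24 with no filter, 8 with DESeq2 and 6 in the fit of 18 libraries. The counts for the genotypes with DMSO and for the olaparib interaction were 36 and 162, and 102 and 346 with no filter. Leaving out a library gave 100 to 195 in place of 177 calls for PARP1 KO olaparib, 144 to 281 in place of 236 between the drugs in PARP1 KO, 5 to 46 for the genotypes with DMSO and 86 to 273 for the olaparib interaction. Depth limits ABCB1, ABCC4, CES1, CYP3A4 and CYP3A5, at 5 counts a library or fewer.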
